A study of Mus musculus with 10 samples.

Results

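The T cell and NK cell genes described here are 31 mouse genes chosen by symbol: the chains of the T cell receptor complex, the co-receptors, regulatory T cell genes, signalling and co-stimulatory genes, cytotoxic granule genes, NK cell receptors and the pan-leukocyte genes Ptprc and Cd52. Of these, 28 had at least 1 probe with a single gene symbol, 57 probes in all, out of 45281 probes and 19057 genes on the array. Lck, Tcf7 and Gzma were not analysed here.

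RNA came from 10 frozen skin melanomas of C57BL6 mice of genotype BrafV600E-CDK4R24C, which carry an inducible oncogenic BRAF(V600E) allele and a mutant Cdk4, and each tumor was measured on 1 Illumina mouse whole-genome bead array. The 5 pigmented and the 5 amelanotic, MPNST-like tumors (MPNST is malignant peripheral nerve sheath tumor) shared that genotype and treatment: tamoxifen on the skin for 4 days to switch on the BRAF(V600E) allele, then DMBA, a chemical carcinogen, once. Neither the age and number of mice nor the cells in which the allele was switched on is given in the labels, so p-values measure the spread between these tumors. The 8 melanocyte markers examined all fell in the MPNST-like tumors, with a mean log2 level of 11.68 to 12.03 in the pigmented and 4.34 to 9.11 in the MPNST-like tumors.

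T cells recognise antigen through a receptor whose signal passes through the CD3 and zeta chains, and are divided by the co-receptors CD4 and CD8 into helper, regulatory and cytotoxic cells. NK cells lack that receptor and weigh signals from activating and inhibitory receptors, several of them lectin-like proteins encoded together in the NK gene complex. Both kinds of lymphocyte can kill tumor cells with perforin and granzymes, and both reside in skin.

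In the MPNST-like tumors the NK receptor gene Klrd1 was higher than in the pigmented tumors (log2 difference 2.28, SE 0.40, limma adjusted p = 0.00131). That size depends on background, since only 1 of the 5 pigmented tumors had a detected level (1.03 without background correction). Klrd1 was tested only because of its detection in the MPNST-like tumors, which selects for a difference, so its p adds no support. The lymphocyte and myeloid surface gene Cd52 was 5.58-fold higher in the MPNST-like tumors (2.48, SE 0.52, adjusted p = 0.00346). The 4 measured chains of the T cell receptor complex did not pass the test, and Cd3d, Cd3e and Cd3g were detected in some tumors of both groups. Foxp3 and Cd8b1 fell at 1 probe each, while other probes of the same genes were undetected or had a positive difference. Differences are MPNST-like minus pigmented on a log2 scale of normalized intensity, n = 5 per group, and a gene passed when limma's p, adjusted by Benjamini-Hochberg over 11984 genes, was under 0.05. In tumor pieces, more cells of a type and more RNA per cell cannot be told apart.

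Most of the genes were dim. A probe counted as detected on an array at a detection p-value under 0.05, and was tested when detected on 3 or more of the 10 arrays. That held for 29 of the 57 probes, against 49.6% of all probes, and left 22 of the 28 genes with a tested probe, against 62.9% of all genes. Cd8a, Il2ra, Cd5, Gzmb, Ncr1 and Il2rb had none. At the edge of this filter, 5 probes (of Cd4, Cd28, Il7r, Klrk1 and Ptprc) were detected on exactly 3 arrays and 3 probes (of Il2ra, Cd27 and Il7r) on exactly 2. Undetected probes lay at the bottom of the log2 scale (the lowest tested value was 4.14), so a difference that starts from there is limited by background. Of the 22 tested genes, Klrd1, Klrb1c and Cd52 rose and Foxp3 and Cd8b1 fell. Of all genes tested, 38.8% passed, 18.6% higher and 20.2% lower, so the 5 of 22 that passed here were a smaller share than the background. The median difference of the 22 genes was 0.214 and that of all genes 0.011. Some genes, Klrd1 and Klrb1c among them, passed the filter only through the group where they were high, which selects for a difference. These counts therefore describe the tested genes and not the whole list.

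Tumors of the same group differed from each other. The number of listed genes detected was 6, 7, 9, 18 and 14 in pigmented 1 to 5 and 7, 21, 22, 20 and 21 in MPNST-like 1 to 5. MPNST-like 1 thus lay among the pigmented tumors with few detected genes, and pigmented 4 and 5 had more than the other pigmented tumors. For all genes on the array, the share detected was 53.3% to 58.4% in pigmented tumors and 56.1% to 61.6% in MPNST-like tumors. MPNST-like 3 had the highest value of 11 of the 22 tested genes, and MPNST-like 1 the lowest of 7. The mean log2 level of keratinocyte markers was 9.07 in pigmented 4 and 9.11 to 9.34 in MPNST-like 2 to 5, and 6.27 to 7.79 in the other tumors, MPNST-like 1 (6.54) and pigmented 5 (6.27) included. Its part in the lymphocyte gene levels was not tested.

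**Figure D1:**
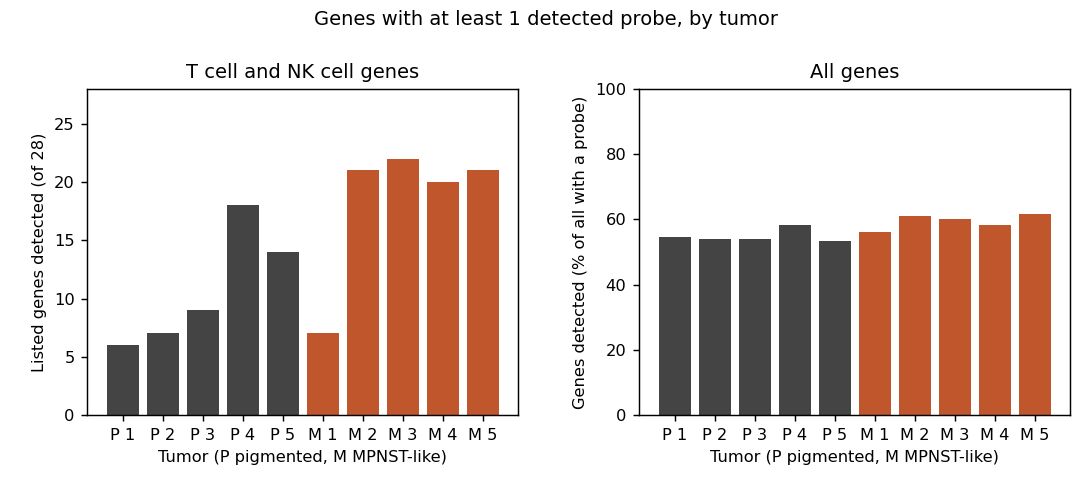
Bars give, for each tumor (P pigmented, M MPNST-like, numbered by replicate), the number of the 28 listed genes with at least 1 detected probe (left) and the share of all genes detected (right, percent). Pigmented tumors had 6 to 18 listed genes detected and MPNST-like tumors 7 to 22, with MPNST-like 1 at 7.

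**Figure D2:**
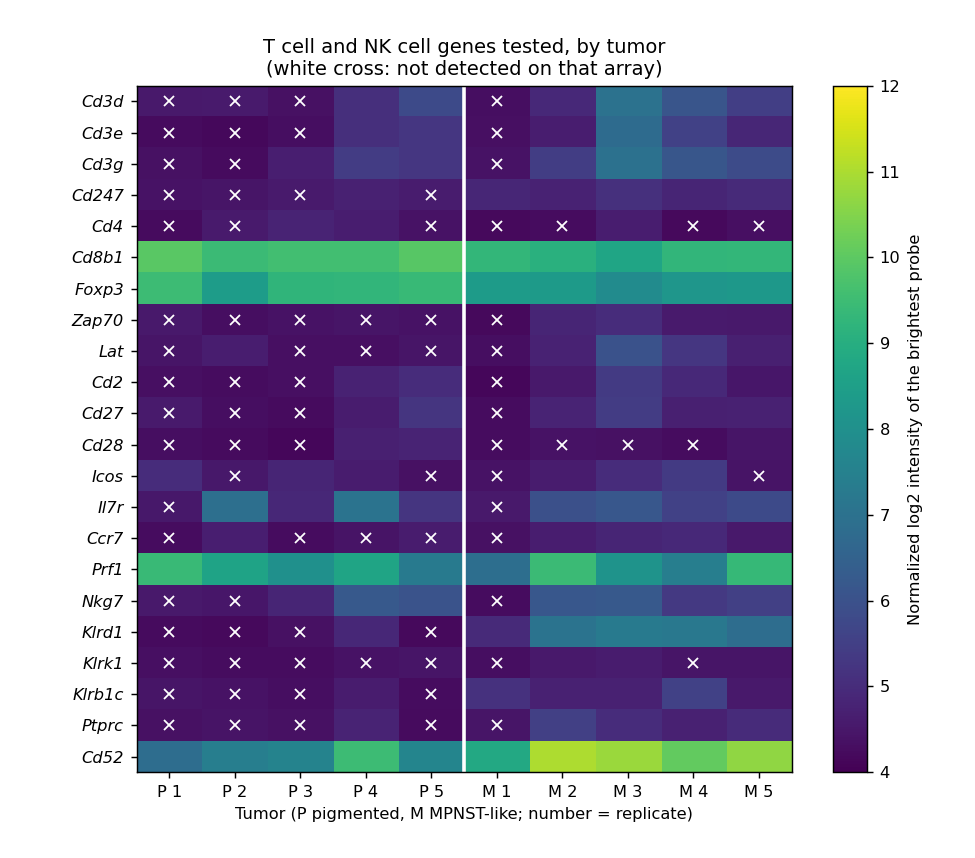
Colour gives the normalized log2 intensity of the brightest probe of each of the 22 tested genes (rows) in each tumor (columns), and a white cross marks an undetected probe. Detected cells of the receptor complex genes lie in pigmented 4 and 5 and MPNST-like 2 to 5 for Cd3d and Cd3e, while Cd8b1, Foxp3, Prf1 and Cd52 are detected in all 10 tumors.

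The CD3 chains carry the signal of the T cell receptor, and Cd3g, Cd3d and Cd3e follow each other on chromosome 9. Their promoters are shown because the 3 genes stood high in the same tumors. The sequences are RefSeq's, build GRCm38.p6, 300 bases around the start of each gene, 5′ to 3′ along the gene, Cd3g at chr9:44980382-44980681 (minus strand), Cd3d at chr9:44981536-44981835 (plus strand) and Cd3e at chr9:45009562-45009861 (minus strand). Capitals mark the ETS motif AGGAAG, the RUNX motif TGTGGT, the E-box CAGNTG or the TATA box TATAAA, on either strand.
Cd3g: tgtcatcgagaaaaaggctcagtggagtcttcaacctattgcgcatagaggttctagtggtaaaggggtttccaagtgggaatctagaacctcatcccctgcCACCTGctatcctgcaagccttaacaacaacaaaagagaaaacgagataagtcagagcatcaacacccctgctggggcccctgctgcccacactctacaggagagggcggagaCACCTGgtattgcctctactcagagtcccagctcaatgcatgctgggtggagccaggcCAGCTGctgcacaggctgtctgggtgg
Cd3d: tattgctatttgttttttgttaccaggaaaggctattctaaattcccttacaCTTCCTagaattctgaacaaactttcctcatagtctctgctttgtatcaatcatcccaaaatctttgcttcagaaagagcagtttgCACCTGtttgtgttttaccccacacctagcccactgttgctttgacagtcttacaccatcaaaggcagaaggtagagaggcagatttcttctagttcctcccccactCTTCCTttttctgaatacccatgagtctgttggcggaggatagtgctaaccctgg
Cd3e: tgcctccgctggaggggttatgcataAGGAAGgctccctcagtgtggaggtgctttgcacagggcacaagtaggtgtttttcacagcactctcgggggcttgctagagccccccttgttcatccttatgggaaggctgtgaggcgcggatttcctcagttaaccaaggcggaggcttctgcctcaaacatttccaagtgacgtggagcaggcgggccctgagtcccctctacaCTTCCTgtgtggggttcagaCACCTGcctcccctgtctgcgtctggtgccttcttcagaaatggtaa
The ETS motif occurred 2 times in each of the Cd3d and Cd3e windows and 0 times in Cd3g, and the E-box 3 times in Cd3g and 1 time in each of the others. Neither the RUNX motif nor the TATA box was found in the 3 windows. Of 32851 RefSeq promoters of this length, 35.4% held the ETS motif, 51.4% the E-box, 16.8% the RUNX motif and 13.6% the TATA box. No 2 matches overlapped, and a match is a description of letters only.

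Cd3d read 4.54, 4.58, 4.35, 5.09 and 5.79 in pigmented 1 to 5 and 4.30, 4.92, 7.03, 6.11 and 5.47 in MPNST-like 1 to 5. Cd3g read 4.37, 4.24, 4.66, 5.43 and 5.26, and 4.40, 5.44, 6.99, 6.13 and 5.83. The brighter Cd3e probe read 4.24, 4.18, 4.31, 5.07 and 5.26, and 4.32, 4.64, 6.79, 5.56 and 4.87. For all 3 genes MPNST-like 3 was the highest tumor. In MPNST-like 1 the 3 genes were undetected, as in pigmented 1 and 2, and the groups overlapped. The differences were 0.96 for Cd3g (SE 0.43, adjusted p = 0.0967), 0.70 for Cd3d (SE 0.47, adjusted p = 0.266) and 0.62 for Cd3e (SE 0.43, adjusted p = 0.28), and none passed. Cd3g passed without MPNST-like 1 (1.30, adjusted p = 0.0141), within chip 2 (1.20, adjusted p = 0.0435), with chip as a block (0.96, 0.0247) and after median scaling (1.27, 0.0345), and within chip 1 it was 0.61 (adjusted p = 0.502). The second Cd3e probe was detected in the same number of tumors of each group, 2 pigmented and 4 MPNST-like, with a difference of 0.26 (SE 0.33).

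Cd247, which encodes the zeta chain that both the T cell receptor and NK receptors use for signalling, was the only receptor complex gene whose groups did not overlap. It read 4.40, 4.46, 4.57, 4.74 and 4.60 in pigmented 1 to 5 and 4.86, 4.76, 5.12, 4.82 and 4.95 in MPNST-like 1 to 5, and was detected in 1 pigmented and all 5 MPNST-like tumors. The highest pigmented tumor, pigmented 4, was just below the lowest MPNST-like tumor, MPNST-like 2. The difference of 0.35 (SE 0.13) had an adjusted p of 0.0504 and did not pass. It passed in 6 of 22 alternatives, over which it ran from 0.10 to 0.51. Cd247 passed the detection filter only through the MPNST-like tumors, so its p and its lack of overlap add no support. The other 2 Cd247 probes were detected on 1 array and on none. Groups did not overlap for 4 of the 22 tested genes (Cd247 and Klrd1 higher, Cd8b1 and Foxp3 lower), where 25.9% of all genes tested had groups that did not overlap.

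Cd4 and Cd8a gave little signal. Cd4, the co-receptor of helper and regulatory T cells, was detected in pigmented 3 and 4 and MPNST-like 3 at its brighter probe, with values of 4.24, 4.59, 4.81, 4.65 and 4.38 in the pigmented and 4.21, 4.26, 4.64, 4.21 and 4.33 in the MPNST-like tumors. Its groups overlapped and its difference was -0.20 (SE 0.15, adjusted p = 0.309). The second Cd4 probe was detected on 1 array. Cd8a, which encodes the alpha chain of CD8 and neighbours Cd8b1 on chromosome 6, had 1 probe detected on 1 array and 1 probe detected on none.

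Cd8b1, which encodes the CD8 beta chain of cytotoxic T cells, gave different answers at its 3 probes. The brightest was detected in all 10 tumors and read 9.96, 9.44, 9.58, 9.57 and 9.93 in pigmented 1 to 5 and 9.30, 9.09, 8.70, 9.28 and 9.30 in MPNST-like 1 to 5. All MPNST-like tumors were below all pigmented tumors, and the difference was -0.56 (SE 0.17, adjusted p = 0.023). The second probe was detected in pigmented 4 and MPNST-like 2 to 5 and read 4.39, 4.18, 4.40, 5.03 and 4.48, and 4.34, 4.65, 5.87, 5.41 and 5.30, a difference of 0.62 (SE 0.28, adjusted p over probes 0.111). Its highest tumor was MPNST-like 3, the tumor in which the brightest probe was lowest and the CD3 chains were highest. The third probe was detected on 1 array. All 3 probes carry the same RefSeq transcript accession in the platform annotation, and what each binds was not tested.

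Foxp3, the transcription factor that defines regulatory T cells, showed the same split at its 4 probes. The brightest was detected in all 10 tumors and read 9.49, 8.42, 9.24, 9.26 and 9.38 in pigmented 1 to 5 and 8.39, 8.37, 7.85, 8.21 and 8.28 in MPNST-like 1 to 5. The MPNST-like tumors all lay below the pigmented ones, with MPNST-like 1 just under pigmented 2. This probe fell by 0.94 (SE 0.21, adjusted p = 0.00527). The second probe was detected in pigmented 2 and 4 and MPNST-like 2 to 5 and read 4.34, 4.62, 4.31, 4.57 and 4.35, and 4.30, 4.47, 5.41, 5.16 and 4.57, a difference of 0.35 (SE 0.22, adjusted p over probes 0.244). Its highest tumors were MPNST-like 3 and 4, again the tumors with the highest CD3 chains. The other 2 probes were detected on no array. What each Foxp3 probe binds was not tested either. Both decreases depended on the scaling of the arrays. After median scaling they were -0.46 for Foxp3 (adjusted p = 0.182) and -0.14 for Cd8b1 (0.65), after cyclic loess -0.84 (0.00879) and -0.48 (0.0366), and in the authors' values -1.46 (0.000346) and -1.16 (0.000482). With a gene's tested probes averaged they were -0.30 (0.0904) and 0.03 (0.895). Median scaling put the median difference of all genes at 0.33, and the authors' values put it at -0.22. Within chip 1 and chip 2 the Foxp3 differences were -0.58 (adjusted p = 0.535) and -1.18 (0.00745), and those of Cd8b1 were -0.50 (0.464) and -0.60 (0.0942). The Cd8b1 call also ended without pigmented 1 (adjusted p = 0.0571), without pigmented 5 (0.0562) and without MPNST-like 3 (0.0531).

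**Figure D3:**
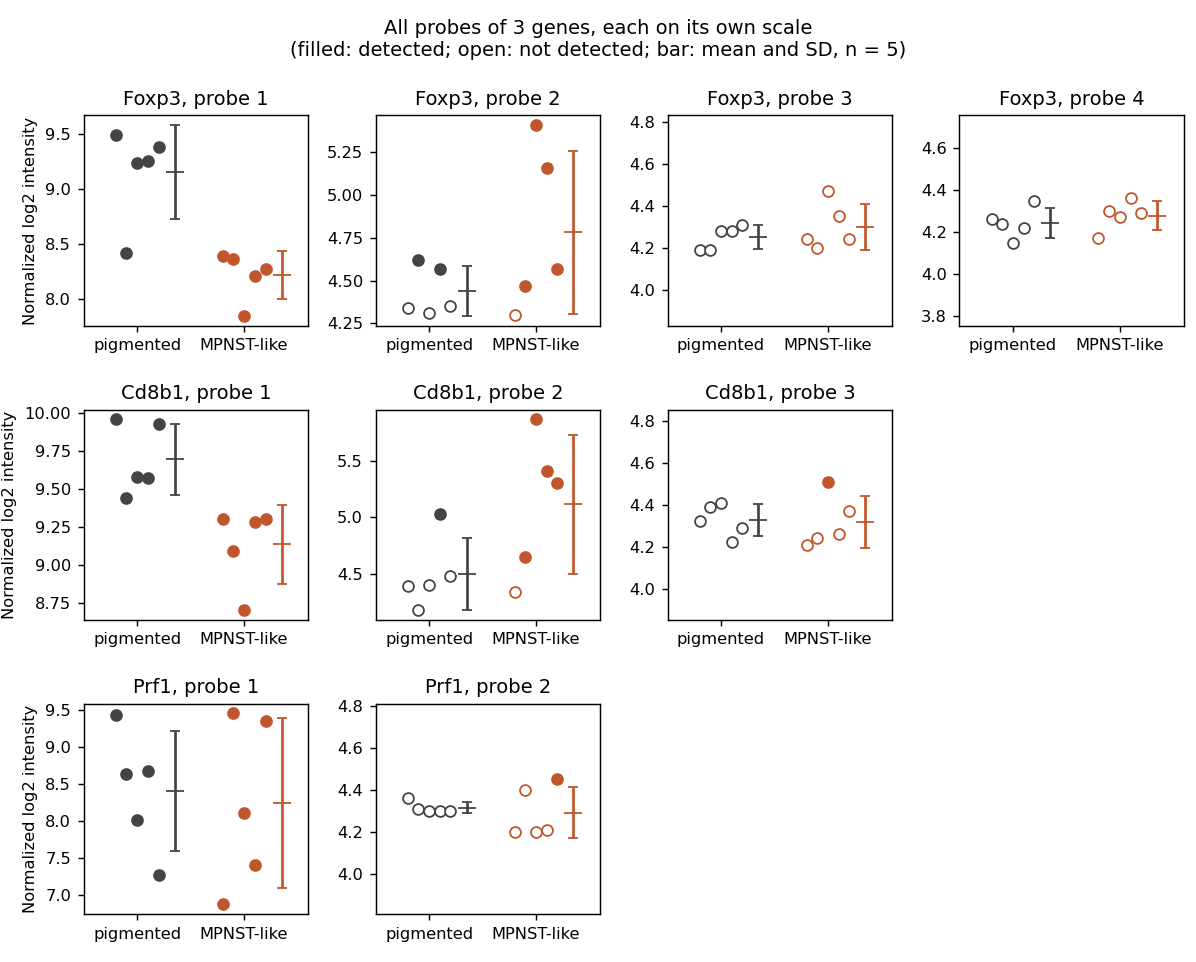
Points give the normalized log2 intensity of every probe of Foxp3, Cd8b1 and Prf1 in the 10 tumors, replicates 1 to 5 from left to right within each group, filled where detected, each panel on its own axis, with mean and SD (n = 5). Probe 1 of Foxp3 and of Cd8b1 is lower in the MPNST-like tumors (8.22 against 9.16 and 9.13 against 9.69), whereas probe 2 of each has its highest value in MPNST-like 3.

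Il2ra, the high-affinity subunit of the interleukin-2 receptor carried by regulatory and activated T cells, was detected in MPNST-like 3 (4.73) and MPNST-like 4 (4.67) at 1 probe and in no tumor at the other, and was not tested. The probes of a gene could be set against each other for 16 genes with several probes. All probes were tested for 2 of them (Cd3e and Cd52), some for 12 and none for 2 (Cd8a and Il2ra). Of 7 genes with several tested probes, 5 had differences of 1 sign (Cd3e, Zap70, Il7r, Ptprc and Cd52) and Foxp3 and Cd8b1 had differences of both signs. For Foxp3 and Cd8b1 only 1 of the tested probes passed, so 0 genes had probes that passed in opposite directions. Tested as probes, 3 member probes rose and 2 fell, against 15.4% and 18.7% of all probes tested.

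The genes of proximal receptor signalling were near background. Lat, the membrane adaptor that gathers signalling proteins at the activated receptor, read 4.46, 4.65, 4.33, 4.34 and 4.46 in pigmented 1 to 5 and 4.31, 4.77, 6.0, 5.28 and 4.70 in MPNST-like 1 to 5. MPNST-like 2 to 5 were above all pigmented tumors and MPNST-like 1 was the lowest of all. The difference of 0.56 (SE 0.27, adjusted p = 0.125) did not pass, but passed without MPNST-like 1 (0.74, adjusted p = 0.0404). Lat was detected in 1 pigmented and 4 MPNST-like tumors. It passed the filter only through the MPNST-like tumors, so its p adds no support. Zap70, the kinase that binds the phosphorylated CD3 and zeta chains, was detected at its brighter probe in no pigmented tumor and in MPNST-like 2 to 5 (4.84, 5.03, 4.58 and 4.54). Its MPNST-like mean was only 1.03 times the lowest detectable level of the pigmented arrays, and its difference did not pass (adjusted p = 0.30). Its second tested probe was detected in pigmented 5 (4.88) and MPNST-like 2, 3 and 5, with a difference of 0.07 (SE 0.18), and the third on no array.

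Genes of adhesion, co-stimulation and naive or memory T cells did not pass either. Cd2, an adhesion receptor of T and NK cells, and Cd27, a co-stimulatory receptor, were detected in pigmented 4 and 5 and MPNST-like 2 to 5, the tumors in which Cd3d was detected. Cd2 differed by 0.15 (SE 0.24, adjusted p = 0.662) and Cd27 by 0.20 (SE 0.24, adjusted p = 0.544). The main co-stimulatory receptor gene Cd28 was detected in pigmented 4 and 5 and MPNST-like 5 only. Icos, an inducible co-stimulatory receptor, was detected in 3 tumors of each group, highest in MPNST-like 4 (5.35), with a difference of 0.09 (SE 0.21). Its second probe was detected on 1 array, and Cd5, which dampens receptor signalling, on none.

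Il7r, the interleukin-7 receptor chain on which naive and memory T cells depend, followed another order of tumors than the CD3 chains. Its brightest probe read 4.51, 6.93, 4.89, 7.06 and 5.24 in pigmented 1 to 5 and 4.56, 5.96, 6.18, 5.56 and 5.81 in MPNST-like 1 to 5. Pigmented 2 and 4 were the highest, the range of the pigmented tumors enclosed that of the MPNST-like tumors, and the difference was -0.11 (SE 0.52, adjusted p = 0.886). In pigmented 2, where Il7r read 6.93, Cd3d, Cd3e and Cd3g were undetected. Ccr7, the receptor that guides T cells and dendritic cells to lymph nodes, was detected in pigmented 2 and MPNST-like 2 to 5, with a difference of 0.20 (SE 0.15, adjusted p = 0.307).

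Among cytotoxic granule genes, Prf1, which encodes the pore-forming protein perforin, was detected in all 10 tumors at its brighter probe and read 9.43, 8.64, 8.02, 8.68 and 7.27 in pigmented 1 to 5 and 6.88, 9.45, 8.11, 7.41 and 9.35 in MPNST-like 1 to 5. The highest tumors were MPNST-like 2, pigmented 1 and MPNST-like 5, the groups overlapped throughout, and the difference was -0.17 (SE 0.54, adjusted p = 0.833). Pigmented 1 had no detected CD3 chain, and the second Prf1 probe was detected on 1 array, in MPNST-like 5 (4.45). What the brighter Prf1 probe binds was not tested. Nkg7, a granule membrane protein gene of NK and cytotoxic T cells, read 4.55, 4.49, 4.83, 6.23 and 6.05, and 4.26, 6.16, 6.24, 5.34 and 5.52. It was detected in pigmented 3 to 5 and MPNST-like 2 to 5, its groups overlapped, and its difference was 0.27 (SE 0.45, adjusted p = 0.665). Gzmb, the granule protease that triggers cell death, was detected in 1 tumor, pigmented 5 (5.0), and in none of the MPNST-like tumors, and was not tested.

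Klrd1 encodes CD94, which pairs with NKG2 chains to form receptors for non-classical MHC class I on NK cells and some T cells. It read 4.22, 4.20, 4.36, 4.90 and 4.20 in pigmented 1 to 5 and 4.95, 7.05, 7.25, 7.19 and 6.85 in MPNST-like 1 to 5, from raw intensities of 76.8 to 90.4 and of 102 to 257. Pigmented 4 was the only pigmented tumor in which it was detected, MPNST-like 2 to 5 stood well apart from all others, and MPNST-like 1 was just above pigmented 4. The rise of 2.28 was 1.79 within chip 1 (adjusted p = 0.263) and 2.61 within chip 2 (0.00293). Over 22 alternatives it ran from 1.03 without background correction to 2.71 without MPNST-like 1, and it passed in all of them except chip 1 alone. Klrd1 passed the detection filter only through the MPNST-like tumors, so its p adds no support.

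Klrb1c, which encodes NK1.1, the antigen by which NK cells of C57BL6 mice are recognised, read 4.45, 4.38, 4.30, 4.62 and 4.25 in pigmented 1 to 5 and 5.15, 4.72, 4.72, 5.55 and 4.55 in MPNST-like 1 to 5. It was detected in pigmented 4 and in all 5 MPNST-like tumors, and was highest in MPNST-like 4 and 1, not in MPNST-like 3. Klrb1c thus passed the filter only through the MPNST-like tumors, so its p adds no support. It rose by 0.54 (SE 0.20, adjusted p = 0.0484), a call that held in 6 of 21 alternatives and had an adjusted p of 0.0511 when all tested probes were fitted separately. Leaving out any tumor other than pigmented 4 or MPNST-like 5 ended it, and it was 0.52 within chip 1 (adjusted p = 0.423) and 0.55 within chip 2 (0.195). Klrk1, the activating receptor NKG2D, next to Klrd1 on chromosome 6, was detected in no pigmented tumor and in MPNST-like 2, 3 and 5 (4.55, 4.60 and 4.46) at its tested probe, with a difference of 0.14 (SE 0.12, adjusted p = 0.384). Of its other 3 probes, 1 was detected in pigmented 1 only (4.84) and the others on no array. Ncr1, the activating receptor NKp46 found on nearly all NK cells, was detected on no array. Il2rb, the receptor chain through which NK cells and memory T cells sense interleukin-2 and interleukin-15, was detected on 1 array.

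**Figure D4:**
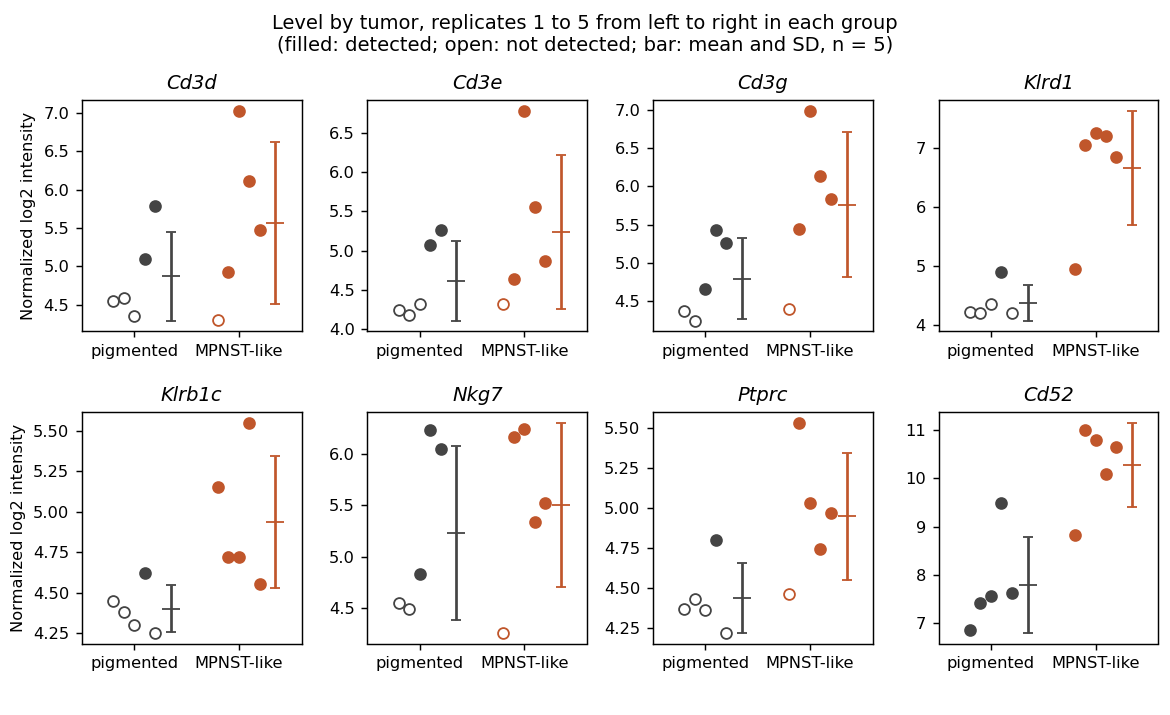
Points give the normalized log2 intensity of 8 listed genes in each tumor, replicates 1 to 5 from left to right, filled where detected, with mean and SD per group (n = 5). Klrd1 is at 6.85 to 7.25 in MPNST-like 2 to 5 and at 4.95 in MPNST-like 1, whereas Cd3d, Cd3e and Cd3g are highest in MPNST-like 3 and overlap between the groups.

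Ptprc and Cd52 are expressed by leukocytes in general. Ptprc, the phosphatase CD45 that activates receptor signalling, read 4.37, 4.43, 4.36, 4.80 and 4.22 in pigmented 1 to 5 and 4.46, 5.53, 5.03, 4.74 and 4.97 in MPNST-like 1 to 5 at its brightest probe. It was detected in pigmented 4 and MPNST-like 2 to 5, the groups overlapped, and its difference of 0.51 (SE 0.20, adjusted p = 0.0653) did not pass. It passed without MPNST-like 1 (0.63, adjusted p = 0.0247) and without pigmented 4 (0.60, 0.0409). Ptprc passed the detection filter only through the MPNST-like tumors, so these p-values add no support. A second probe, at 0.22 (SE 0.14), was detected in 3 MPNST-like tumors, and 2 probes were detected on no array. Within tumors, the Ptprc difference minus that of each receptor complex gene was -0.18 for Cd3d, -0.11 for Cd3e, -0.45 for Cd3g and 0.16 for Cd247, with two-sided exact permutation p of 0.78, 0.89, 0.37 and 0.58 over all assignments of the tumors to groups (0.89 for each after adjustment over the 4 pairs). The MPNST-like tumors fell on both sides of the pigmented mean in every pair, so no unequal change was found, which does not show that the changes were equal.

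Cd52, a short glycoprotein anchored in the membrane of lymphocytes, monocytes and dendritic cells, was detected in all 10 tumors at both of its probes. The brighter read 6.86, 7.42, 7.57, 9.49 and 7.63 in pigmented 1 to 5 and 8.83, 11.0, 10.80, 10.09 and 10.66 in MPNST-like 1 to 5. MPNST-like 2 to 5 were above all pigmented tumors, and MPNST-like 1 was below pigmented 4. The second probe read 5.66, 6.12, 6.51, 7.31 and 5.91, and 7.44, 9.62, 9.10, 8.57 and 8.89, with groups that did not overlap. The 2 probes gave 2.48 (SE 0.51) and 2.42 (SE 0.41), with adjusted p over probes of 0.00348 and 0.00103. The rise was 2.77 within chip 1 (adjusted p = 0.143) and 2.29 within chip 2 (0.0213), and over 22 alternatives it ran from 1.93 to 2.94 and passed in all except chip 1 alone.

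Some markers of other leukocytes also rose, where 18.6% of all genes tested were higher and 20.2% lower. The B cell, dendritic cell and neutrophil lists hold few tested markers, so their counts say little against that share. Of 16 tested macrophage and monocyte markers 11 rose and 0 fell, with a mean log2 level of 6.44 to 8.41 in the pigmented and 8.19 to 9.64 in the MPNST-like tumors. Its pigmented maximum was in pigmented 4 and its MPNST-like minimum in MPNST-like 1, as for Cd52. The mean levels of the B cell, dendritic cell, mast cell, keratinocyte and fibroblast markers had the same maximum and minimum, so this order is not particular to macrophages. The fractalkine receptor gene Cx3cr1, which monocytes, macrophages and some NK cells express, rose by 3.22 (SE 0.30, adjusted p = 4.12e-05). Cx3cr1 was detected in 2 pigmented and 5 MPNST-like tumors. It passed the filter only through the MPNST-like tumors, so its p adds no support. Of 6 tested B and plasma cell markers 2 rose and 0 fell, with mean levels of 4.46 to 5.10 and 5.19 to 5.55. Sdc1 (2.12) and Cd79b (0.94) rose, while Cd22 (-0.10), Blnk (-0.05), Fcer2a (0.17) and Mzb1 (0.54) did not pass. Cd79b, detected in 1 pigmented and 5 MPNST-like tumors, passed the filter only through the MPNST-like tumors, so its call adds no support. Ms4a1, Pax5, Cr2 and Jchain were not detected on 3 arrays. Dendritic cell markers rose in 3 of 6 cases and fell in 0 (means 4.55 to 5.04 and 4.91 to 5.60), and Itgax, Flt3, Xcr1, Epcam and Ccl22 were not tested. The 3 that rose, Batf3, Clec9a and Zbtb46, were detected in 2, 0 and 2 pigmented tumors and in 5 MPNST-like tumors each. They passed the filter only through the MPNST-like tumors, so this count adds no support. Mast cell markers rose in 4 of 8 (4.89 to 6.61 and 5.91 to 8.33) and neutrophil markers in 1 of 4 (5.35 to 7.59 and 6.81 to 11.58), with 0 lower in either list. Their part in the rise of Cd52 and Klrd1 was not tested.

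Other genes of T and NK cell pathways, from 7 lists of 168 genes of which 84 were tested, passed in 28 cases, 25 higher and 3 lower, with a median difference of 0.46. Those 28 of 84 are a smaller share than the 38.8% of all genes tested. By direction, 25 of 84 higher is a larger share than the 18.6% of all genes, and 3 of 84 lower a smaller share than 20.2%. The counts of single lists below are read against these shares. Some of the 25 passed the filter only through the MPNST-like tumors, which selects for a rise. The share by direction and the single-list counts therefore add no support. Without the filter, 18 of 146 such genes were higher and 2 lower, against 2036 and 2310 of 19057 genes. Of the genes named below, Itgae, Tnfrsf4, Klra3, Ccl19 and Cd48 were detected in only 1 or 2 pigmented tumors. They passed the filter only through the MPNST-like tumors, so their p adds no support. Of 16 surface and adaptor genes of T cells 4 rose and 1 fell. Thy1, a surface protein of T cells that fibroblasts and nerve cells also carry, rose by 2.91 (SE 0.55, adjusted p = 0.00197), Itgae, the integrin chain that holds T cells in epithelium, by 1.49 (SE 0.37), and Tnfrsf4, the co-stimulatory receptor OX40, by 1.39 (SE 0.34). Cxcr3, a chemokine receptor of activated T and NK cells, was detected in all 10 tumors and fell by 1.42 (SE 0.34, adjusted p = 0.0075), from 6.56, 5.16, 6.83, 6.18 and 7.29 in the pigmented to 4.69, 4.81, 5.40, 4.96 and 5.09 in the MPNST-like tumors, where MPNST-like 3 exceeded pigmented 2. All 8 fibroblast markers examined rose as well, with mean levels of 6.47 to 9.67 and 10.89 to 11.44, and their part in the Thy1 rise was not tested.

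Of 14 tested T cell receptor signalling genes 6 rose and 1 fell. Rasgrp1, which couples the receptor to Ras, was detected in 1 pigmented and all 5 MPNST-like tumors and rose by 1.84 (SE 0.20, adjusted p = 0.000104), with 0.74 to 2.07 over 22 alternatives. Rasgrp1 passed the filter only through the MPNST-like tumors, so its p adds no support and its size is limited by background. Coro1a, an actin regulator of leukocytes, rose by 1.83 (SE 0.42), the inhibitory phosphatase gene Ptpn6 by 1.41 (SE 0.29) and the adaptor gene Fyb by 1.14 (SE 0.38, adjusted p = 0.0354, lost in 10 of 22 alternatives). Coro1a, Ptpn6 and Fyb are also expressed by myeloid cells. Of 14 transcription factors 2 rose and 1 fell. Tox, a factor of developing and chronically stimulated T cells, was detected in no pigmented and in all MPNST-like tumors (6.51, 5.25, 6.49, 6.31 and 5.21), at least 2.54-fold higher against the lowest detectable level (adjusted p = 0.00115), and was highest in MPNST-like 1, where the CD3 chains were undetected. Tox passed the filter only through the group where it was high, so its p adds no support. Ikzf1, a factor of all lymphoid cells, rose by 1.25 (SE 0.29), and Zbtb16, a factor of NKT cells, fell by 0.66 (SE 0.23, adjusted p = 0.045, lost in 14 of 22 alternatives).

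Of 21 other NK receptor and cytotoxic genes 5 rose and 0 fell. They include the granule proteoglycan gene Srgn (2.32, SE 0.59), the signalling adaptor gene Tyrobp (1.64, SE 0.54) and the Fc receptor gene Fcgr3 (1.46, SE 0.51), which myeloid cells also express, and Klra3, a Ly49 receptor of NK cells (0.91, SE 0.27, adjusted p = 0.0208). The calls of Tyrobp and Fcgr3 were each lost in 11 of 22 alternatives. Ly49 genes are near-identical copies, so a probe may bind several of them. Klrc1, Klrc2 and Klrc3, the NKG2 partners of Klrd1, were not detected on 3 arrays. Of 13 tested cytokines and receptors 6 rose and 0 fell. Ccl19, Il18r1, Il4 and Il13, all among the 6, passed the filter only through the MPNST-like tumors, which selects for a rise. Il15, which sustains NK cells and memory CD8 T cells, read 6.06, 5.30, 6.12, 6.16 and 5.90 in the pigmented and 6.96, 7.61, 8.43, 7.38 and 7.20 in the MPNST-like tumors, without overlap (1.61, SE 0.27, adjusted p = 0.00113). The T cell chemoattractant genes Ccl19 and Cxcl16 rose by 2.15 (SE 0.63) and 1.21 (SE 0.40), and the Cxcl16 call held in 10 of 22 alternatives. Il18r1 was detected in 0 pigmented and 4 MPNST-like tumors and was at least 1.49-fold higher (adjusted p = 0.0274). It too passed the filter only through the MPNST-like tumors, and its call held in 15 of 21 alternatives.

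Among 4 tested genes of ligands of NK receptors 2 rose. Clec2d, a ligand of inhibitory NKR-P1 receptors, rose by 3.14 (SE 0.51, adjusted p = 0.000856), from 7.01, 7.01, 6.34, 7.63 and 5.85 to 8.39, 11.04, 9.92, 9.27 and 10.91. All MPNST-like tumors were above all pigmented tumors. Cd48, a leukocyte ligand of the NK receptor 2B4, rose by 0.91 (SE 0.24). Of 2 tested genes of gamma-delta and skin T cells neither passed, with Sox13 at 0.69 (SE 0.26, adjusted p = 0.0526) and Cd163l1 at 0.20 (SE 0.16, adjusted p = 0.342).

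**Figure D5:**
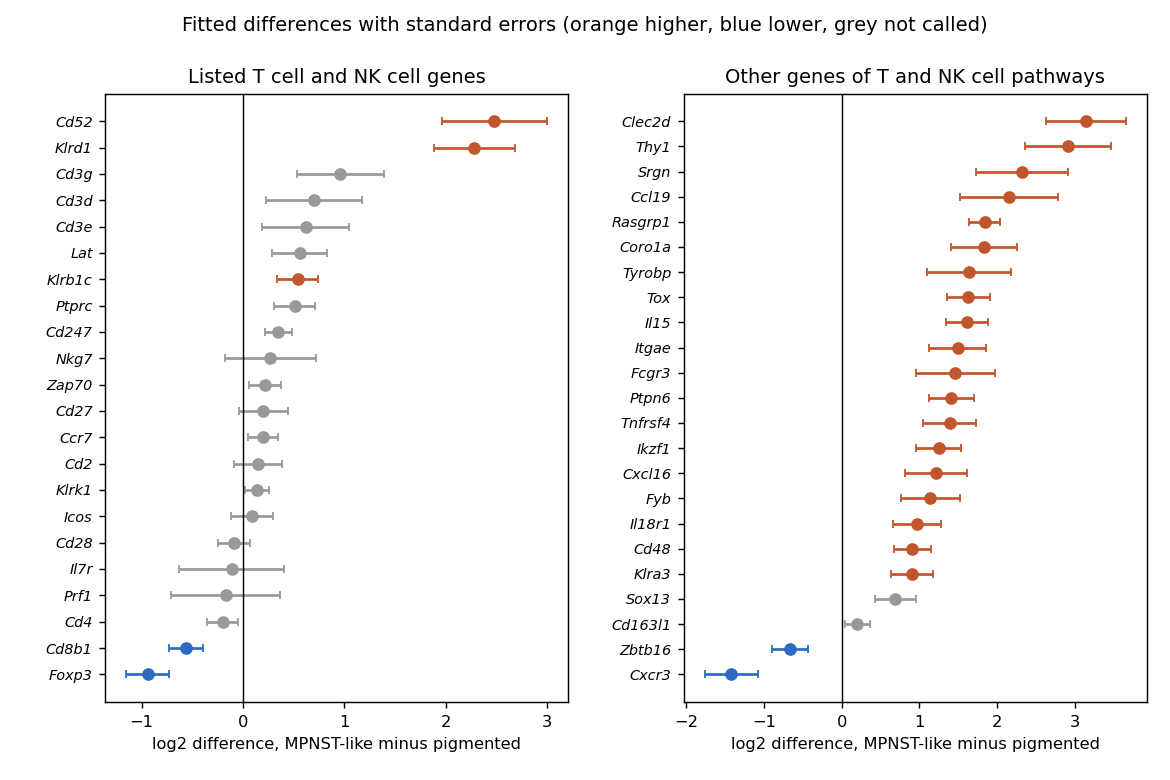
Points give the fitted log2 difference, MPNST-like minus pigmented, with its SE, for the 22 tested genes (left) and for the genes named from other T and NK cell lists (right), coloured by whether they passed. Cd52 (2.48) and Klrd1 (2.28) stand apart on the left, and Clec2d (3.14) and Thy1 (2.91) lead on the right.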

How the data were processed

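Per the file headers, every array has an average signal (intensity) and a detection p-value per probe in a deposited table that was not normalized. The scanner software is not given in the sources used here. The authors' series matrix holds processed log2 values. That scale was found by comparison, since values turned back from log2 lay on a straight line against the intensities of the same array (lowest R squared 1). The authors' centring and method remain unknown (column medians 4.79 to 5.00), and it served as an alternative.

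Intensities were corrected and normalized with neqc (normexp with background from the detection p-values, offset 16, quantile, log2) in limma 3.58.1, R 4.3.3. Symbols came from the platform annotation: 34885 probes had 1 symbol, 18 several and 10378 none, and 0 changed on lookup of Entrez identifiers in RefSeq (GRCm38.p6). The brightest tested probe stood for a gene. Groups were compared with lmFit and eBayes over 11984 genes, and over 22480 probes for the probe results. The replicates' numbers are names only. The limma test was checked on simulated data with normal noise, which did not model the detection filter or signal near background. The arrays sat on 2 chips, each with both groups: replicates 1 and 2 of either group on chip 1, the rest on chip 2. Median intensity ranged over 79.4 to 89.0 (pigmented) and 87.4 to 93.9 (MPNST-like). The number of arrays limits the precision. Lower bounds take, on each array, the lowest detected value. Members and lists were chosen with earlier results of these data known. All members were named, and of each other list up to 4 genes that passed with the largest differences (2 where none passed; of marker lists, some of up to 2). Alternatives were other background corrections and scalings, the authors' values, other filters, averaged probes, chip as a block or alone, another variance model and leaving out each tumor. Drawings were made with matplotlib 3.10.9.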

Additional observations from a re-analysis of the deposited data

Results flagged for a closer look

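Of 44 groups of 5 tumors examined (22 tested genes in 2 groups), 4 held a tumor far from the others by Dixon's test, which chance does in about 1 of 20 groups. Klrd1 was low in MPNST-like 1, at 4.95 against 6.85 to 7.25 in the other MPNST-like tumors. Klrd1 was also high in pigmented 4, at 4.90 against 4.20 to 4.36 in the other pigmented tumors. The brightest Foxp3 probe was low in pigmented 2, at 8.42 against 9.24 to 9.49 in the rest of its group. Cd4 was high in MPNST-like 3, at 4.64 against 4.21 to 4.33 in the rest, and only there among the MPNST-like tumors was it detected.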

How the results depend on the processing

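No paired analysis was possible because the replicate numbers are in accession order and pair no tumors. The 4646 genes and 28 other pathway genes that passed stayed within 1.5 times of these counts in every alternative except chip 1 alone, which holds 2 tumors per group: 390 genes, 0 listed genes (1 at an unadjusted p under 0.05, Cd52) and 2 other pathway genes. The 7656 probes that passed became 7265 to 8642 under other background corrections and scalings, the authors' values and chip as a block, the settings in which probes were counted. Of the listed genes, 5 passed, 3 to 7 when 1 tumor was left out (3 without pigmented 1, pigmented 5 or MPNST-like 3; 7 without pigmented 4 or MPNST-like 1) and 4 to 6 otherwise. Leaving out 1 tumor gave 3859 to 4842 genes and 19 to 35 other pathway genes. Probes kept numbered 29, 57 without a filter and 15 at a detection p-value under 0.01 on 5 or more arrays. The split of genes moved with the scaling, from 2228 higher and 2418 lower to 3845 and 902 after median scaling and 1220 and 3820 in the authors' values, where the other pathway genes were 20 higher and 7 lower. With a gene's probes averaged Cd8b1 stood at 0.03, since its probes differ in sign. Of 17 listed genes that did not pass, 4 passed in some alternative (Cd3g, Cd247, Lat and Ptprc), and 7 had the other sign in some. Cd247, Lat and Ptprc passed the filter only through the MPNST-like tumors, so their passes in alternatives add no support. The Ptprc pairs passed in no alternative. Signal near background limits the size of Klrd1, Klrb1c, Tox and other differences that start from undetected arrays.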

Other observations

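Genes known from regulatory and activated T cells were looked up tumor by tumor after their values had been seen, because the Foxp3 probes differed. Tnfrsf4 read 4.49, 4.37, 4.27, 4.99 and 4.28 in pigmented 1 to 5 and 4.68, 5.97, 6.83, 6.14 and 5.73 in MPNST-like 1 to 5. Tnfrsf18, which encodes the co-stimulatory receptor GITR, read 4.35, 4.10, 4.41, 4.96 and 4.25, and 4.41, 5.67, 6.12, 5.53 and 5.25 (0.98, SE 0.29, limma adjusted p = 0.0213). Tnfrsf4 and Tnfrsf18 passed the filter only through the MPNST-like tumors, so their p adds no support. Both were highest in MPNST-like 3, as were the second Foxp3 probe (5.41) and the detected Il2ra probe (4.73), while the brightest Foxp3 probe was lowest there (7.85). Other such genes had other orders: Tnfrsf9 was highest in pigmented 2 (4.98), Ikzf2 and Cd4 in pigmented 3 (4.89 and 4.81) and Icos in MPNST-like 4 (5.35), and Ctla4, Ccr8 and Il10 had no tested probe.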
